A study of Mus musculus with 24 samples.

Results

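*Neat1*, *Malat1*, *Meg3*, *Rian*, *Miat*, *Gas5*, *Pvt1* and *Kcnq1ot1* are long noncoding RNAs that stay largely in the nucleus or are linked to cell growth. They were picked by gene symbol, with earlier results of these data known, and make up 8 of the 49315 genes in the count tables. All 8 were found and all 8 passed the filter on low counts in every comparison.

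Primary astrocytes were prepared from the cortex of wildtype C57BL/6J mouse embryos late in gestation, with the embryos of a pregnant mouse pooled, and used at passage 1. The cultures were mock-irradiated (0 Gy) or exposed to 0.1 Gy or 2 Gy X-rays, and RNA was taken 6 h or 24 h later. This gave 6 groups of 4 libraries each, 24 in all, from RNA selected for poly(A) tails. All groups shared genotype, strain, age and culture, so that dose and time were the only labelled differences between them, and each time point had mock-irradiated cells of its own.

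Long noncoding RNAs are transcribed and mostly spliced like mRNAs but encode no known protein. *Neat1* is the scaffold of paraspeckles, nuclear bodies that hold RNA-binding proteins, and *Malat1* collects in nuclear speckles, where splicing factors are stored. *Meg3* and *Rian* are read from the maternal chromosome in the imprinted Dlk1-Dio3 domain, and *Kcnq1ot1* is read from the paternal chromosome, antisense to *Kcnq1*, where it silences neighbouring genes. *Miat* is a nuclear RNA known from neurons and the retina. *Gas5* hosts small nucleolar RNAs (snoRNAs) in its introns and builds up in growth-arrested cells, and *Pvt1* lies next to *Myc* and is a known target of p53. Poly(A) selection bears on several of them, since the long form of *Neat1* and mature *Malat1* end without a poly(A) tail and can be caught only through stretches of A inside the transcript.

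Those encoded stretches differed between the genes, and *Meg3* is left out of what follows on them. Among the other RNAs, in the GENCODE M21 transcripts, a run of at least 12 A, away from the last 50 bases, was found in *Malat1*, *Rian* and *Kcnq1ot1*, and in none of the transcripts of *Neat1*, *Miat*, *Gas5* or *Pvt1*, whose longest runs were 7, 4, 5 and 9 bases. Over all transcripts of at least 200 bases 3.54% held such a run, and 18.79% of those of at least 5000 bases. The longest run in *Malat1*, *Rian* and *Kcnq1ot1* is shown with 30 bases on either side, with the run in capitals, because these are places where an oligo(dT) bead or primer could bind.
Malat1: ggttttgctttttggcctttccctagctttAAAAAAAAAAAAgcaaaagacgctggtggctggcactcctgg
Rian: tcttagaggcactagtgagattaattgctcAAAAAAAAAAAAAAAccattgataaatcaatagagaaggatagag
Kcnq1ot1: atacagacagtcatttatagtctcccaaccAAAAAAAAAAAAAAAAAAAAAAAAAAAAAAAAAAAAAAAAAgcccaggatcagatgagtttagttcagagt

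These windows lie in exons, on GRCm38, at chr19:5795958-5796029 on the minus strand for *Malat1*, chr12:109652199-109652273 on the plus strand for *Rian*, and chr7:143226915-143227015 on the minus strand for *Kcnq1ot1*. The runs are 12, 15 and 41 bases long. *Kcnq1ot1* held 8 separate runs of at least 12 A, of which 7 lie inside the gene as the count tables define it, and *Malat1* and *Rian* held 1 each. The part of these runs in the counts was not tested.

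*Gas5* has another short sequence of note at its start. RefSeq (GRCm38.p6) lists 2 starts for *Gas5*, and the downstream one, at chr1:161035166-161035185 on the plus strand, opens with a C followed by pyrimidines, the form of the terminal oligopyrimidine tract that couples translation to growth signals. Its first 20 bases are shown with the pyrimidines in capitals.
Gas5: CTTTCggagctgtgcggcat

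A C followed by at least 4 pyrimidines opened 2.51% of the 32851 starts in that table, and the other *Gas5* start did not have it. Of the 8 genes 6 have a start in the table.

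The genes themselves differ widely in size and base composition. On GRCm38, as the count tables give it, *Neat1* (ENSMUSG00000092274) lies at chr19:5824708-5845478 and *Malat1* (ENSMUSG00000092341) close by at chr19:5795690-5802672, both on the minus strand. *Meg3* lies at chr12:109541001-109571726 and *Rian* at chr12:109603940-109661716, both on the plus strand. *Miat* lies at chr5:112213228-112229395 on the minus strand, *Gas5* at chr1:161034422-161038539 on the plus strand, *Pvt1* at chr15:62037986-62378096 on the plus strand and *Kcnq1ot1* at chr7:143212155-143296549 on the minus strand. The summed exon length ran from 3760 bases in *Gas5* to 84395 bases in *Kcnq1ot1*. GC content was 40.1% in *Rian*, 40.31% in *Kcnq1ot1*, 42.3% in *Malat1*, 42.49% in *Gas5*, 46.05% in *Pvt1*, 48.19% in *Neat1*, 51.95% in *Meg3* and 55.35% in *Miat*. Between 1.33% (*Kcnq1ot1*) and 30.43% (*Miat*) of the exon bases are also exon of another gene, in *Miat* mostly of Gm26953 on the opposite strand. Whether strand was used in counting is not given in the sources used here, so reads of such pairs cannot be told apart.

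The libraries held between 14742855 and 38194800 counts. Levels are given as CPM, counts scaled to the TMM-normalized library size. Cell type markers are the exception, with counts scaled to library size without TMM. All 11 astrocyte markers were detected, with *Gfap* at a median of 499 CPM and *Aqp4* at 539 CPM. The 12 neuron markers summed to between 414 and 719 CPM, mostly *Stmn2* (median 203 CPM), *Map2* (187 CPM) and *Tubb3* (56.1 CPM), while the neuron-defining *Rbfox3*, *Snap25*, *Dcx* and *Nefl* had medians of at most 0.281 CPM. The 10 oligodendrocyte lineage markers summed to between 385 and 951 CPM, led by *Olig1* (314 CPM), with *Mog* at 0.0396 CPM. The 11 fibroblast and vessel markers summed to between 3760 and 7630 CPM, mostly *Acta2* (4190 CPM), followed by *Col1a1* (388 CPM) and *Col1a2* (243 CPM), while *Dcn*, *Lum*, *Pecam1* and *Vtn* had medians of at most 0.679 CPM and *Cldn5* had 4 counts in all. The 12 microglia markers summed to between 247 and 331 CPM in the replicate 2 libraries of all 6 groups, and to between 1550 and 3080 CPM in the other 18 libraries. In bulk samples fewer cells of a type and less RNA per cell cannot be told apart.

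Levels in CPM are not divided by length, so they set the depth behind each RNA and give no order of the genes. *Malat1* had a median of 2827 CPM over the 24 libraries, with a range of 1881 to 5185 CPM. The medians were 432 CPM for *Neat1*, 425 CPM for *Meg3*, 262 CPM for *Rian*, 119 CPM for *Gas5*, 49.4 CPM for *Miat* and 13.9 CPM for *Pvt1*. *Kcnq1ot1* had a median of 4.74 CPM, from 54 to 271 counts a library. Its counts were the lowest of these RNAs, and the part of counting error in its spread was not tested. *Neat1* varied most, with a highest library 7.01 times the lowest and a standard deviation of log2 CPM larger than that of 88.2% of the tested genes. *Gas5* varied least, with a ratio of 2.16 and a standard deviation above 26.1% of the tested genes.

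**Figure D1:**
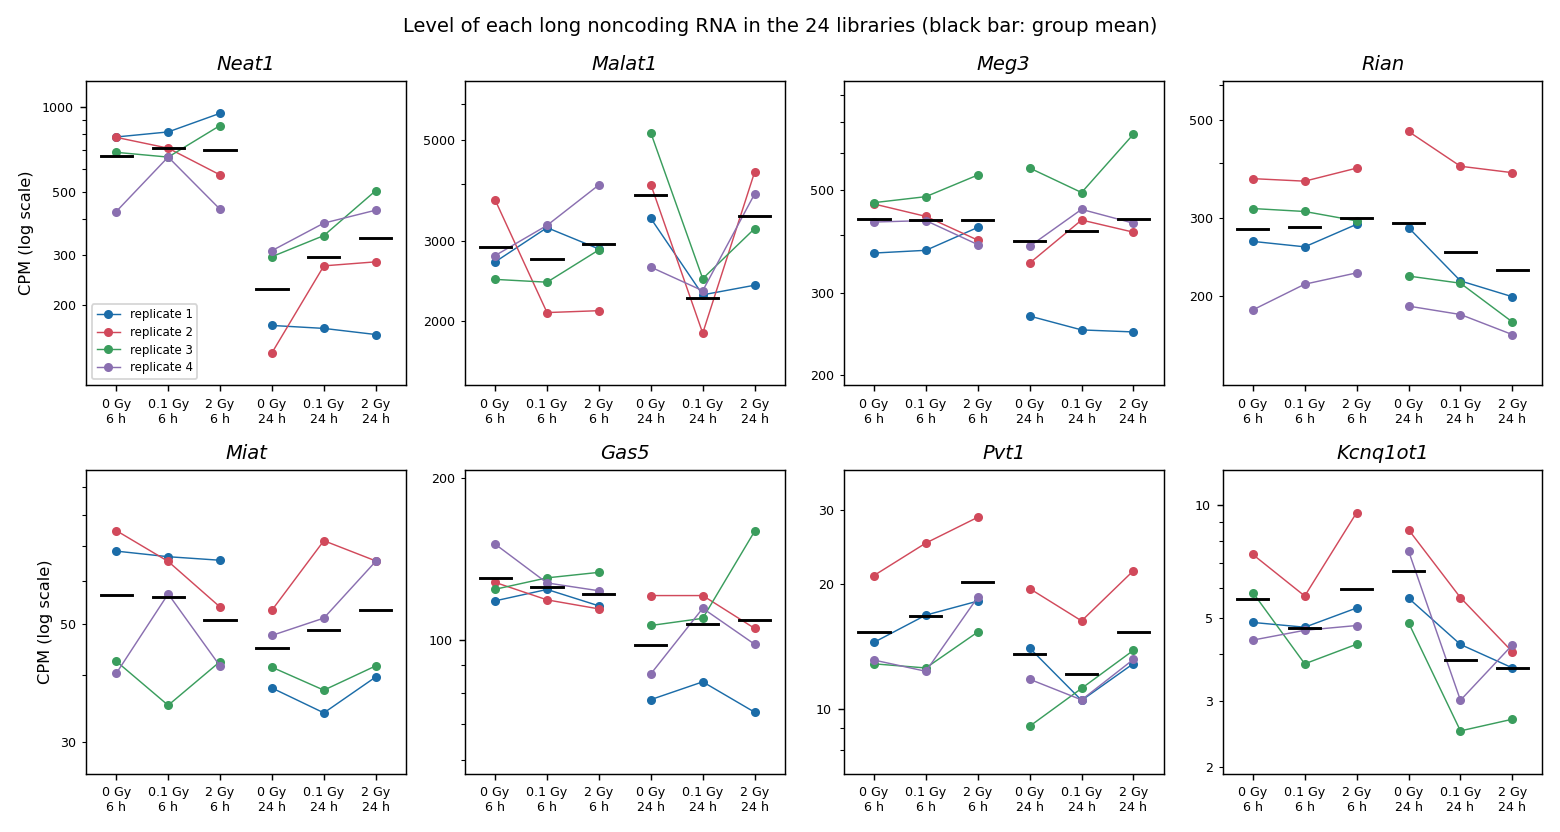
Level of each RNA in CPM (log axis, with a separate range in each panel) in the 6 groups. Points are the 4 libraries of a group, lines join libraries of the same replicate number within a time, and black bars are group means. *Neat1* has lower means at 24 h than at 6 h at each dose, and replicate 2 lies above the others for *Rian* and *Pvt1* in all 6 groups.

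Because a long transcript gives more reads, the order of the genes was taken per kilobase of exon. This length sums the exons of all transcripts of a gene. It was 3760 bases in *Gas5*, 17475 in *Rian* and 6996 in *Pvt1*, where the longest transcripts have 2556, 8089 and 3319. For *Neat1* it was 20771 bases, the length of its longest transcript. The order holds for these lengths, and which transcripts gave the reads was not tested. *Malat1* stood apart from the others in all 6 groups, with group means of 321 to 543 CPM per kb. Below it, *Gas5*, *Neat1*, *Meg3* and *Rian* lay between 10.9 and 34.7 CPM per kb in their group means. In mock-irradiated cells at 6 h the order was *Gas5* (34.7), *Neat1* (32.2), *Meg3* (23.9) and *Rian* (16.2 CPM per kb), and the libraries of each neighbouring pair overlapped. At 24 h *Neat1* stood at 10.9 CPM per kb in mock-irradiated cells, last of these 4, again overlapping its neighbour *Rian* (16.7 CPM per kb). *Miat* followed with group means of 4.84 to 6.08, *Pvt1* with 1.74 to 2.89 and *Kcnq1ot1* with 0.0434 to 0.0788 CPM per kb. The libraries of these last 3 overlapped neither each other nor the genes above them in any group.

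**Figure D2:**
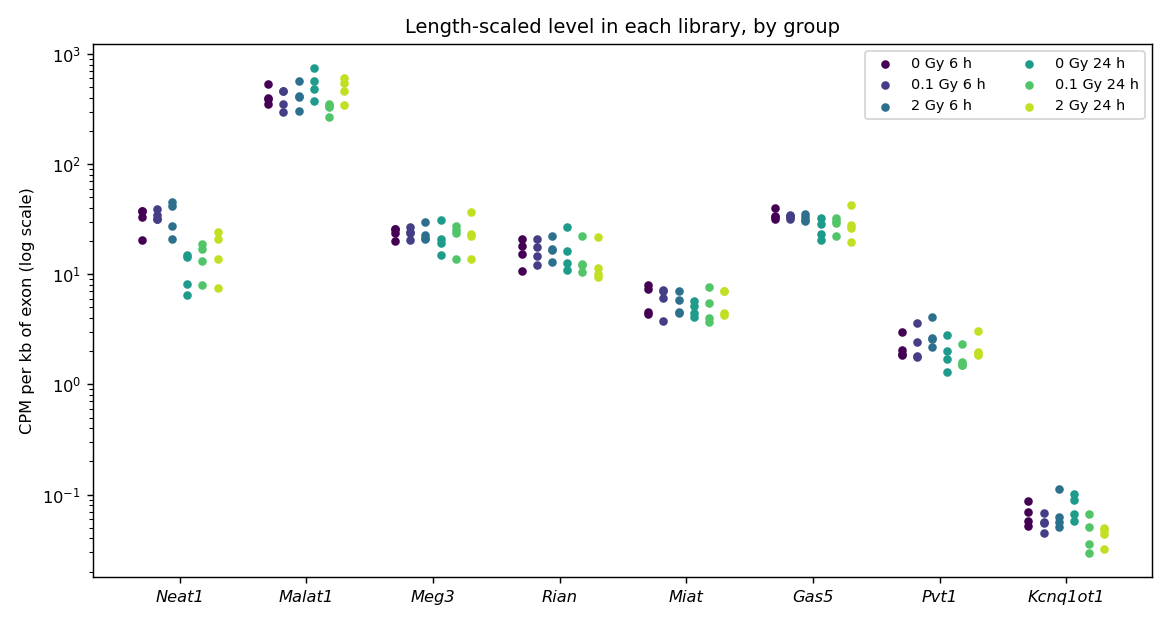
Level per kilobase of exon (CPM per kb, log axis) of each RNA in each of the 24 libraries, with the 6 groups side by side. *Malat1* is the highest and *Kcnq1ot1* the lowest in all groups, and the group means of *Neat1* are lower at 24 h than at 6 h at each dose.

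The largest difference was that of *Neat1* with time. In mock-irradiated cells *Neat1* stood at 781, 779, 690 and 426 CPM at 6 h (replicates 1 to 4, mean 669 ± 167 SD) and at 169, 135, 295 and 310 CPM at 24 h (mean 227 ± 88.3 SD). Every 24 h library was below every 6 h library. The log2 fold change was -1.57 (SE 0.31), a 2.98-fold lower level at 24 h, and passed the threshold (adjusted p = 0.0217, edgeR quasi-likelihood). In this comparison 6.7% of the 15887 genes tested were called at an adjusted p under 0.05, and 15.3% had groups that did not overlap. *Neat1* was the only one of the 8 RNAs called, and the only one without overlap. Marker RNA differed between these groups too, the neuron markers summing to a median of 448 CPM (426 to 619) at 6 h and 559 CPM (460 to 719) at 24 h and the microglia markers to 2370 CPM (284 to 3080) and 1830 CPM (247 to 2270). The fibroblast and vessel markers summed to 5370 CPM (4940 to 6540) and 4700 CPM (4060 to 6620). Over the 24 libraries r of *Neat1* was -0.462 with the neuron, 0.358 with the fibroblast and vessel and 0.173 with the microglia markers. It was -0.255 with the oligodendrocyte lineage and 0.075 with the astrocyte markers. The part of these cells' RNA in the *Neat1* difference was not tested.

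The same was seen in cells exposed to 0.1 Gy, where *Neat1* was at 814, 713, 663 and 664 CPM at 6 h and at 165, 274, 350 and 388 CPM at 24 h. The groups did not overlap, and the log2 fold change was -1.30 (SE 0.24, adjusted p = 0.0136). Here 9.9% of genes were called and 19% did not overlap. After 2 Gy *Neat1* was at 947, 574, 858 and 434 CPM at 6 h and at 157, 283, 505 and 431 CPM at 24 h, lower at 24 h in all 4 pairs of the same replicate number, but the groups overlapped. The log2 fold change of -1.04 (SE 0.38) was not called (adjusted p = 0.132), in a comparison in which 6.95% of genes were called and 18.1% did not overlap. These time comparisons after 0.1 Gy and 2 Gy were added after the data had been seen. The size of the *Neat1* difference was not shown to depend on dose, since the interaction of 2 Gy and time was 0.53 (SE 0.51, adjusted p = 0.84) and that of 0.1 Gy and time 0.28 (SE 0.41, adjusted p = 0.956). In mock-irradiated cells the adjusted p rose to 0.0826, 0.061 and 0.0844 without 0 Gy 6 h replicate 1, 0 Gy 6 h replicate 3 and 0 Gy 24 h replicate 1, with log2 fold changes of -1.47, -1.57 and -1.44.

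In mock-irradiated cells time gave no call for the other 7 RNAs. *Gas5* came next, at 118, 128, 124 and 151 CPM at 6 h and 77.7, 121, 107 and 86.7 CPM at 24 h. The groups overlapped, and the log2 fold change was -0.43 (SE 0.16, adjusted p = 0.147). *Miat* (-0.34), *Pvt1* (-0.19) and *Meg3* (-0.17) had negative log2 fold changes, and *Malat1* (0.36), *Kcnq1ot1* (0.23) and *Rian* (0.03) positive ones, each with an adjusted p of 0.381 or more. *Malat1* and *Neat1*, which are neighbours on chromosome 19, thus had log2 fold changes of opposite sign. After 0.1 Gy *Pvt1* was lower at 24 h in 4 of 4 pairs. Its log2 fold change was -0.48 (adjusted p = 0.296), and -0.44 (SE 0.14, adjusted p = 0.0417) with the replicate number as a block, a fit that called 25.7% of genes. The other 6 RNAs had unpaired log2 fold changes of -0.10 (*Meg3*) to -0.31 (*Malat1* and *Kcnq1ot1*) after 0.1 Gy, with *Rian* at -0.21, *Miat* at -0.22 and *Gas5* at -0.24, and of these only *Kcnq1ot1* was lower in 4 of 4 pairs.

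After 2 Gy the 24 h libraries of *Kcnq1ot1* (2.69 to 4.23 CPM) lay just below the 6 h ones (4.25 to 9.52 CPM), and the groups overlapped when the counts were scaled to library size without TMM. The log2 fold change was -0.71 (SE 0.30, adjusted p = 0.2), or -0.67 with the block (adjusted p = 0.0611), where 19.2% of genes were called and none of the 8. Without 2 Gy 6 h replicate 2 it was -0.37 (adjusted p = 0.441). *Rian* was lower at 24 h after 2 Gy in 4 of 4 pairs, with a log2 fold change of -0.39 (SE 0.29, adjusted p = 0.472), or -0.46 with the block (SE 0.15, adjusted p = 0.061). Without 2 Gy 24 h replicate 2 it passed the threshold (-0.76, adjusted p = 0.0487), and the range over the fits that left out 1 library was -0.76 to -0.23. *Pvt1* was also lower in 4 of 4 pairs after 2 Gy (-0.41, SE 0.25, adjusted p = 0.385). *Gas5* (-0.17), *Meg3* (0.00), *Miat* (0.05) and *Malat1* (0.20) were not called.

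The partners of *Neat1* were called in both directions. Beside 6.7% of all genes called between times in mock-irradiated cells, 2 of 11 paraspeckle proteins were called higher at 24 h and 2 lower, with a median log2 fold change of 0.21 (all genes, -0.02). *Sfpq*, which binds *Neat1* and is needed for paraspeckles, was higher (0.60, SE 0.14), as was *Nudt21*, a subunit of a cleavage factor that acts in 3′ end formation (0.62, SE 0.15). *Rbm14* (-1.37, SE 0.16) and *Dazap1* (-0.82, SE 0.20), both RNA-binding proteins of paraspeckles, were lower. Of 9 nuclear speckle proteins the splicing factors *Srsf5* (-0.76) and *Srsf2* (-0.72) were called lower and none was called higher. Among other long noncoding RNAs 2 of 18 tested, *Jpx* (-1.30) and *Mir22hg* (-1.21), were called lower. Of the genes named here *Rbm14* and *Mir22hg* were called in all 8 fits that left out 1 library, and the other 6 in 1 to 4 of them.

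In the Dlk1-Dio3 domain *Meg3* and *Rian* were not called between times in mock-irradiated cells, while 3 of the 4 other tested genes were, beside 6.7% of all genes. *Rtl1* (-1.74, SE 0.33), *Mirg* (-1.28, SE 0.31) and *Dlk1* (-1.05, SE 0.25) were called lower at 24 h, and *Dio3*, which encodes a deiodinase of thyroid hormone, was not called (0.20, SE 0.74). *Dlk1* encodes a membrane protein of the Notch ligand family and is read from the paternal chromosome, whereas *Mirg* is a maternal microRNA host downstream of *Rian*. *Mirg* stood at 17.4 ± 5.12 CPM at 6 h and 7.22 ± 2.82 CPM at 24 h (SD, n = 4), compared with 432 ± 48.2 and 388 ± 122 CPM for *Meg3* and 284 ± 77.4 and 292 ± 126 CPM for *Rian*. Whether the log2 fold changes of *Mirg* and *Meg3* differ was not tested. Of the genes next to the 8 RNAs, *Myc*, the neighbour of *Pvt1*, was called lower (-0.78, SE 0.15) and the other 6 were not called. Of the 7 tested genes of the Kcnq1 domain 1 was called, *Osbpl5*, which was higher (0.73, SE 0.16). Of 14 snoRNA host genes tested *Snhg17* (-1.04) and *Snhg5* (-0.89) were called lower. The 14 terminal oligopyrimidine mRNAs, a class named for a start of the kind shown for the downstream *Gas5* start (their own starts were not examined here), included 13 with a negative log2 fold change (median -0.31) and none called. With 1 library left out *Snhg17* was called in all 8 fits, and the other called genes named here in 2 to 4 of them.

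Exposure to X-rays gave no call among the 8 RNAs at 6 h. At that time 0% of the 15994 genes tested after 2 Gy and 0% of the 16020 tested after 0.1 Gy were called, also with the replicate number as a block (0% and 0%), while 215 and 24 genes had an unadjusted p under 0.05 without the block and DESeq2 called 1 and 0 genes. With the block and a correction for GC content and length in the same fit, 0.969% of genes (155) were called after 2 Gy and 0% after 0.1 Gy, none of the 8 RNAs among them. Of the genes tested 1.17% after 2 Gy and 0.375% after 0.1 Gy had groups without overlap, and none of the 8 RNAs was among them. *Pvt1*, a p53 target, came nearest. It was at 14.5, 20.9, 12.9 and 13.1 CPM in mock-irradiated cells, 16.8, 25.1, 12.6 and 12.3 CPM after 0.1 Gy and 18.2, 28.9, 15.3 and 18.6 CPM after 2 Gy. The 2 Gy library was higher in all 4 pairs, with a log2 fold change of 0.40 (SE 0.24, adjusted p = 1) or 0.39 (SE 0.09, adjusted p = 0.342) with the block and 0.32 (SE 0.07, adjusted p = 0.0887) with the correction as well. The log2 fold change of *Pvt1* after 0.1 Gy was 0.12 (SE 0.27). Of the 14 p53 target genes listed, 13 had a positive log2 fold change at 6 h after 2 Gy (median 0.48 with the block, all genes 0.00), and none was called without the correction, whereas 9 of 14 were called higher with the block and the correction. The other 7 RNAs had log2 fold changes between -0.15 and 0.09 after 2 Gy and between -0.25 and 0.09 after 0.1 Gy.

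At 24 h the groups of the same replicate number varied together, and the calls depend on whether the fit uses this. Without the block 0% of the 15892 genes tested after 2 Gy and 0% of the 16183 tested after 0.1 Gy were called (570 and 241 at an unadjusted p under 0.05), and DESeq2 called 103 and 0. With the block 13.2% of genes were called after 2 Gy and 6.84% after 0.1 Gy. These shares depend strongly on single replicates, since leaving out 1 replicate number moved the count of called genes from 2100 to between 69 (without replicate 2) and 5291 (without replicate 3) after 2 Gy, and from 1107 to between 16 (without replicate 4) and 3728 (without replicate 3) after 0.1 Gy. Among the 8 RNAs *Kcnq1ot1* and *Rian* were then called after 2 Gy, and *Kcnq1ot1* and *Malat1* after 0.1 Gy, all lower than in mock-irradiated cells. The levels of marker RNA differed between these groups as well. At 24 h the oligodendrocyte lineage markers summed to a median of 572 CPM (484 to 624) in mock-irradiated cells, 731 CPM (622 to 951) after 0.1 Gy and 747 CPM (521 to 880) after 2 Gy, and were higher than in the mock-irradiated partner in all 4 pairs at each dose. The astrocyte markers summed to medians of 2640 CPM (2190 to 3300), 3030 CPM (2330 to 3090) and 3060 CPM (2120 to 3180). The microglia markers summed to medians of 1830 CPM (247 to 2270), 2140 CPM (331 to 2710) and 2160 CPM (271 to 2670). They too were higher than in the mock-irradiated partner in all 4 pairs at each dose. The part of oligodendrocyte lineage, astrocyte or microglia RNA in the 24 h dose results was not tested.

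*Kcnq1ot1* was at 5.64, 8.57, 4.85 and 7.53 CPM in mock-irradiated cells at 24 h, 4.25, 5.66, 2.50 and 3.02 CPM after 0.1 Gy and 3.68, 4.06, 2.69 and 4.23 CPM after 2 Gy. It was lower than its mock-irradiated partner in all 4 pairs at each dose, and after 2 Gy the groups did not overlap, which held for 2.95% of all genes. With the block the log2 fold change was -0.85 (SE 0.14, adjusted p = 0.0134) after 2 Gy and -0.83 (SE 0.17, adjusted p = 0.0262) after 0.1 Gy. Both comparisons share the mock-irradiated libraries. The call after 2 Gy was lost without replicate 1 (-0.92, adjusted p = 0.0547), replicate 2 (-0.77, adjusted p = 0.114) or replicate 4 (-0.84, adjusted p = 0.0657), and the call after 0.1 Gy without replicate 2 (-0.92, adjusted p = 0.0631) or replicate 4 (-0.65, adjusted p = 0.192). At 6 h the *Kcnq1ot1* log2 fold changes with the block were 0.06 and -0.24. The tested genes of the Kcnq1 domain were not called at 24 h. The cell cycle inhibitor *Cdkn1c* among them had log2 fold changes of -0.09 (SE 0.29) after 2 Gy and -0.17 (SE 0.19) after 0.1 Gy.

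*Rian* was at 285, 470, 222 and 190 CPM in mock-irradiated cells at 24 h, 216, 393, 214 and 182 CPM after 0.1 Gy and 199, 380, 175 and 164 CPM after 2 Gy. Each replicate went down from 0 Gy over 0.1 Gy to 2 Gy, but the groups overlapped at each dose. Scaled to library size without TMM, replicate 3 was at 217, 221 and 178 CPM and did not go down at 0.1 Gy. With the block the log2 fold change was -0.34 (SE 0.09, adjusted p = 0.0362) after 2 Gy and -0.21 (SE 0.09, adjusted p = 0.149) after 0.1 Gy. The call after 2 Gy was lost without replicate 1 (-0.29, adjusted p = 0.2), replicate 2 (-0.36, adjusted p = 0.163) or replicate 4 (-0.38, adjusted p = 0.107). *Meg3*, in the same domain, was at 268, 348, 556 and 378 CPM in mock-irradiated cells and 248, 405, 658 and 424 CPM after 2 Gy. Its log2 fold change with the block was 0.13 (SE 0.09, adjusted p = 0.355), and *Mirg* was at 0.02 (SE 0.17).

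*Malat1* was at 3363, 3992, 5185 and 2628 CPM in mock-irradiated cells at 24 h, 2284, 1881, 2479 and 2332 CPM after 0.1 Gy and 2398, 4252, 3194 and 3806 CPM after 2 Gy. All 0.1 Gy libraries were below all mock-irradiated ones, as in 1.11% of all genes, whereas the 2 Gy libraries overlapped with both other groups. The log2 fold change with the block was -0.73 (SE 0.13, adjusted p = 0.0262) after 0.1 Gy and -0.14 (SE 0.19, adjusted p = 0.65) after 2 Gy. Without replicate 2 the call after 0.1 Gy was lost (-0.62, adjusted p = 0.0752). Between the doses, *Malat1* was higher after 2 Gy than after 0.1 Gy in all 4 pairs, with a log2 fold change of 0.62 (SE 0.20, adjusted p = 1) or 0.59 (SE 0.17, adjusted p = 0.513) with the block. *Pvt1* was likewise higher in all 4 pairs (0.34 with the block, SE 0.10, adjusted p = 0.469), and *Rian* was lower in all 4 (-0.14, SE 0.08, adjusted p = 1). With the block *Neat1* (0.18), *Miat* (0.16), *Meg3* (0.07), *Gas5* (-0.01) and *Kcnq1ot1* (-0.01) had an adjusted p of 1. In that comparison 0% of the 16002 genes tested were called without the block (215 at an unadjusted p under 0.05) and 0% with it, while DESeq2 called 39 and the fit with the block and the correction for GC content and length 112 (0.7%). Of the 8 RNAs none was called in that last fit. The groups of 1.24% of the genes did not overlap, none of the 8 RNAs among them.

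*Neat1* had positive log2 fold changes at 24 h. It was higher than in mock-irradiated cells in 3 of 4 pairs at each dose, with replicate 1 as the exception (169, 165 and 157 CPM at 0, 0.1 and 2 Gy). With the block the log2 fold change was 0.56 (SE 0.17, adjusted p = 0.0556) after 2 Gy and 0.38 (SE 0.14, adjusted p = 0.0961) after 0.1 Gy, neither of them called. Both passed the threshold without replicate 1 or replicate 3, and neither did without replicate 2 or replicate 4. Over these fits the log2 fold change ran from 0.38 (without replicate 2) to 0.77 (without replicate 1) after 2 Gy, with adjusted p of 0.00781 to 0.247, and from 0.15 to 0.53 after 0.1 Gy (without the same replicates), with adjusted p of 0.0253 to 0.537. *Miat* was higher after 2 Gy in all 4 pairs (0.22, SE 0.10, adjusted p = 0.172) and *Gas5* after 0.1 Gy in all 4 pairs (0.13, SE 0.09, adjusted p = 0.384). *Gas5* after 2 Gy was at 73.7, 105, 159 and 98.4 CPM compared with 77.7, 121, 107 and 86.7 CPM in mock-irradiated cells, so that replicate 3 carried its positive value. *Pvt1* was at 0.20 (SE 0.13) after 2 Gy and -0.14 (SE 0.13) after 0.1 Gy, and after 0.1 Gy *Meg3* was at 0.06 (SE 0.10) and *Miat* at 0.05 (SE 0.11).

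**Figure D3:**
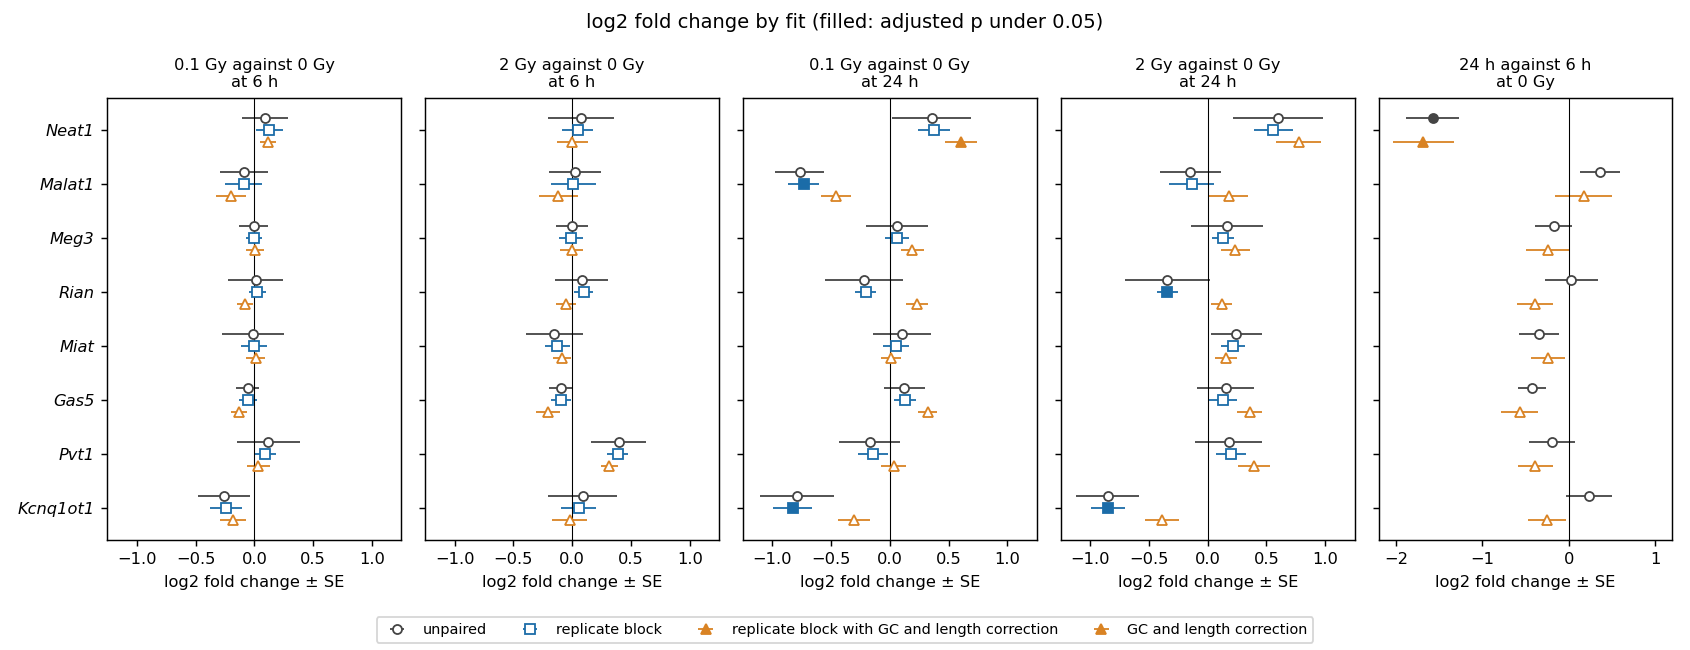
log2 fold change and its standard error for each RNA in 5 comparisons, by fit. Filled symbols mark an adjusted p under 0.05 over all genes, and in the panel of 24 h against 6 h the GC correction is without the block. The block narrows the error bars of the 24 h dose comparisons, and the correction for GC content moves *Kcnq1ot1*, *Rian* and *Malat1* towards higher values there and *Neat1* further up.

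Over the whole table, genes richer in GC had higher log2 fold changes at 24 h. Pearson's r between them across genes, which are not independent, was 0.578 after 2 Gy and 0.608 after 0.1 Gy, and it was -0.385 and -0.35 at 6 h. Genes with a GC content under 43%, where *Rian*, *Kcnq1ot1*, *Malat1* and *Gas5* lie, had a median log2 fold change of -0.29 after 2 Gy and -0.30 after 0.1 Gy at 24 h. The unpaired log2 fold change of *Rian* after 2 Gy (-0.34) was close to this median, and those of *Kcnq1ot1* (-0.85) after 2 Gy and *Malat1* (-0.77) and *Kcnq1ot1* (-0.79) after 0.1 Gy were below it. *Gas5*, at nearly the GC content of *Malat1*, was at 0.16 and 0.12, above it. Long noncoding genes as a class had medians of 0.05 after 2 Gy and -0.02 after 0.1 Gy.

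With the block and a correction for GC content and length in the same fit, 2.84% of genes were called after 2 Gy and 1.48% after 0.1 Gy. *Kcnq1ot1* was then at -0.39 (SE 0.14, adjusted p = 0.179) after 2 Gy and -0.31 (SE 0.14, adjusted p = 0.27) after 0.1 Gy, and *Malat1* after 0.1 Gy at -0.46 (SE 0.13, adjusted p = 0.083), so that none of these calls was kept. *Rian* turned to 0.12 (SE 0.09, adjusted p = 0.492) and 0.23 (SE 0.09, adjusted p = 0.217). *Neat1* was at 0.77 (SE 0.19, adjusted p = 0.0712) after 2 Gy and at 0.61 (SE 0.13, adjusted p = 0.0334) after 0.1 Gy, the one call among the 8 RNAs in this fit. *Gas5* had 0.32 (SE 0.08, adjusted p = 0.0526) after 0.1 Gy and 0.36 (SE 0.10, adjusted p = 0.109) after 2 Gy. The part of GC content in the counts of these RNAs was not tested beyond this correction. The fall of *Neat1* from 6 h to 24 h in mock-irradiated cells was -1.68 (SE 0.36, adjusted p = 0.0209) with the correction.

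**Figure D4:**
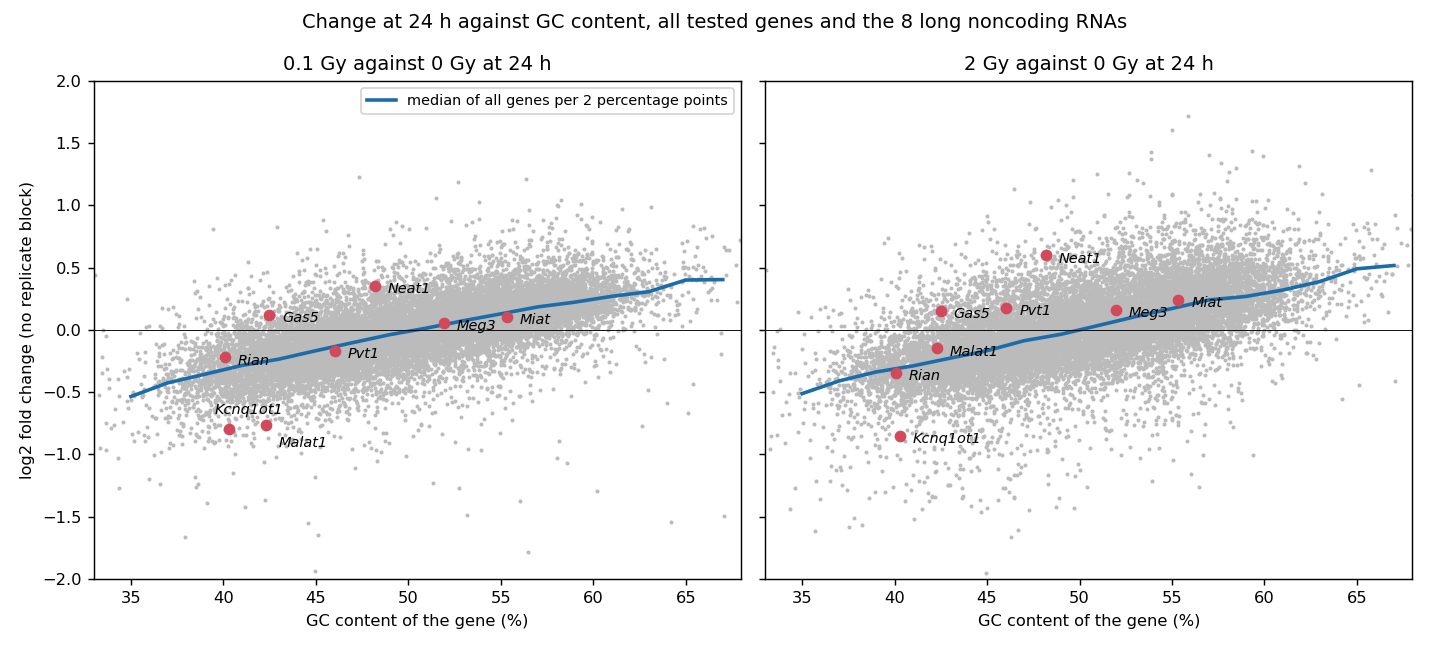
log2 fold change at 24 h (no block) against the GC content of each gene in percent, for 0.1 Gy (left) and 2 Gy (right). Grey points are all tested genes within the axes, the blue line is their median in steps of 2 percentage points of GC, and red points are the 8 RNAs. *Rian* lies near the line at both doses, *Kcnq1ot1* below it and *Neat1* and *Gas5* above it.

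Whether the dose effect differed between 6 h and 24 h was asked with an interaction term. Without the block 0% of 16866 genes were called for 2 Gy and 0% of 17040 for 0.1 Gy (827 and 431 at an unadjusted p under 0.05), and DESeq2 called 4 and 0. With the block 6.78% were called for 2 Gy, *Kcnq1ot1* (-0.89, SE 0.21, adjusted p = 0.0402) and *Rian* (-0.43, SE 0.12, adjusted p = 0.0489) among them. Both were lower relative to mock-irradiated cells at 24 h than at 6 h. For 0.1 Gy 8.87% of genes were called with the block and none of the 8 RNAs, *Malat1* having -0.63 (SE 0.23, adjusted p = 0.0861). The values of the uncalled RNAs with the block ran from -0.18 (*Pvt1*) to 0.52 (*Neat1*) for 2 Gy and from -0.63 (*Malat1*) to 0.26 (*Neat1*) for 0.1 Gy. With GC content and length corrected as well, the interaction of 2 Gy and time was -0.37 for *Kcnq1ot1* (adjusted p = 0.361) and 0.17 for *Rian* (adjusted p = 0.503).

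The listed partner genes at 24 h are given with the block, beside 13.2% of all genes called after 2 Gy and 6.84% after 0.1 Gy. After 2 Gy the splicing factors *Srsf7* (-0.40, SE 0.09) and *Srsf2* (-0.34, SE 0.08) were called lower among 9 nuclear speckle proteins, and after 0.1 Gy the speckle scaffold *Son* (-0.34, SE 0.09). Of 11 paraspeckle proteins *Hnrnph3* was called higher after 0.1 Gy (0.39, SE 0.09) and none was called after 2 Gy. Of 18 other long noncoding RNAs tested, *Tug1* and *Xist*, both nuclear, were called lower at each dose. *Xist*, which coats the inactive X chromosome, had log2 fold changes of -0.66 (SE 0.11) and -0.69 (SE 0.12) after 2 Gy and 0.1 Gy, and *Tug1* -0.40 (SE 0.08) and -0.44 (SE 0.11). *Dleu2* was called lower after 2 Gy (-0.59, SE 0.15). *Abhd11os* was called higher at each dose (1.45, SE 0.21, and 0.93, SE 0.23). Among 14 snoRNA host genes *Snhg14* was called lower at each dose (-0.55 in both), *Snhg15* higher after 2 Gy (0.62) and *Snhg8* higher after 0.1 Gy (0.51). Of the 14 terminal oligopyrimidine mRNAs *Rpl13*, *Rps3* and *Rpl10* were called higher after 2 Gy and *Rpl13* and *Rps3* after 0.1 Gy, each by less than 0.50. *Dlk1* was called higher after 0.1 Gy (0.47, SE 0.10), and *Zbtb37*, next to *Gas5*, lower (-0.53, SE 0.14). For scale, 7 of 14 p53 target genes were called higher after 2 Gy, with *Bbc3* at 0.98 and *Cdkn1a* at 0.57, and 12 of 12 cell cycle genes lower, with a median of -1.18. After 0.1 Gy 3 p53 targets were called higher and 2 lower, and 6 cell cycle genes lower. With GC content and length corrected as well, the calls of *Srsf2*, *Abhd11os*, *Rps3* and *Rpl10* after 2 Gy and of *Hnrnph3*, *Snhg8*, *Rpl13*, *Rps3*, *Dlk1* and *Xist* after 0.1 Gy remained, and those of the other partner genes named here did not. In the fits with the block that left out 1 replicate number, each of these genes kept its sign, but no call of a speckle, paraspeckle, snoRNA host, terminal oligopyrimidine, imprinted, neighbouring or other long noncoding gene was kept in all 4 of them at either dose. After 2 Gy all of those calls were lost without replicate 2. All but *Abhd11os* were also lost without replicate 1, and all but *Abhd11os* and *Xist* without replicate 4. After 0.1 Gy all were lost without replicate 2 and without replicate 4, and *Rps3* also without replicate 1. Of the p53 targets 1 of 7 calls was kept in all 4 after 2 Gy and 0 of 5 after 0.1 Gy, and of the cell cycle genes 8 of 12 and 1 of 6. In the fit of all replicates with the block and GC content and length corrected, *Hnrnph3* (0.40, higher) and *Myc* (-0.45, lower) were called after 2 Gy. There 5 of 14 p53 targets were called higher and 11 of 12 cell cycle genes lower. After 0.1 Gy the same fit called 1 p53 target higher and 3 cell cycle genes lower.

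Across the 24 libraries the 8 RNAs did not form a single group. The highest Pearson's r of log2 CPM was 0.754 for *Meg3* and *Gas5*, followed by 0.709 for *Rian* and *Pvt1*, 0.636 for *Neat1* and *Gas5* and 0.613 for *Rian* and *Kcnq1ot1*. *Meg3* and *Rian*, which share a domain, had -0.044, and *Neat1* and *Malat1* -0.107. These values describe libraries that share 4 replicate numbers, 6 groups and the same base composition trend, and carry no test.

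Within each group *Rian* and *Pvt1* were highest where microglia marker RNA was lowest. In all 6 groups the replicate 2 library had the highest level of both RNAs, *Rian* being at 363 to 470 CPM in these 6 libraries. Over the 24 libraries r with the summed microglia markers was -0.815 for *Rian*, -0.741 for *Pvt1*, -0.571 for *Kcnq1ot1* and -0.486 for *Miat*, and it was 0.173 for *Neat1* and 0.025 for *Malat1*. With the summed astrocyte markers r was -0.803 for *Rian*, about as strong, and -0.427 for *Pvt1*. The 6 replicate 2 libraries also had the highest neuron marker sums of their groups (619 to 719 CPM). With those sums r was 0.435 for *Rian* and 0.474 for *Pvt1*. Replicate 2 was low in microglia markers in the exposed and the mock-irradiated groups alike. The part of microglia, astrocyte or neuron RNA in these levels was not tested.

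**Figure D5:**
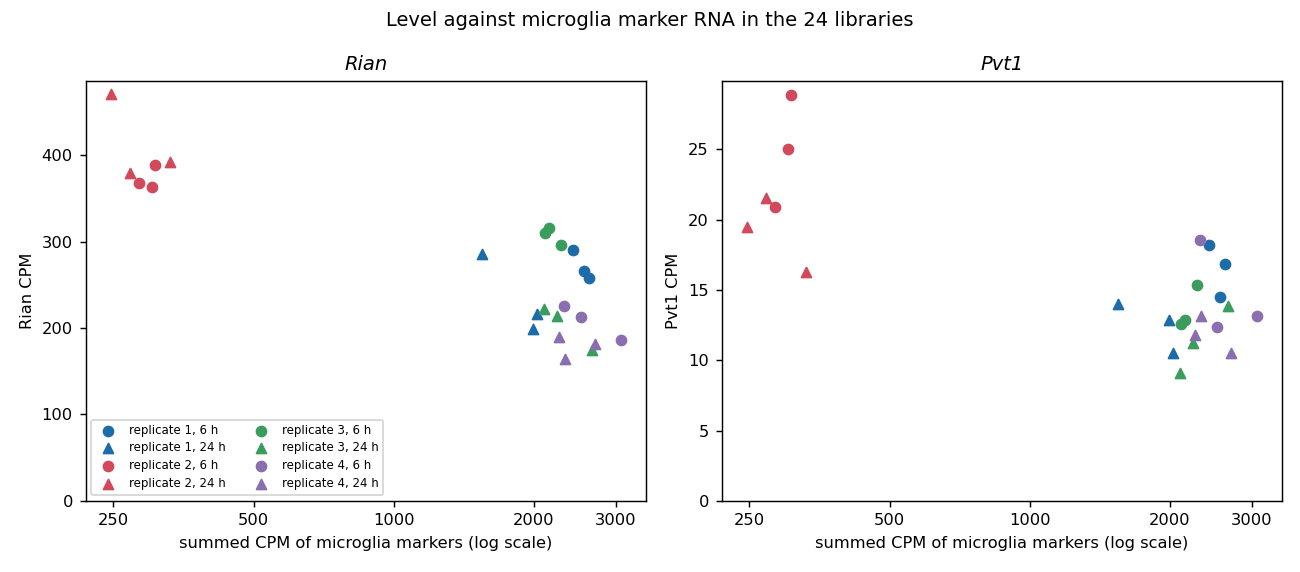
Level of *Rian* and *Pvt1* (CPM) against the summed level of 12 microglia markers (CPM without TMM, log axis) in the 24 libraries, by replicate number and time. The 6 replicate 2 libraries lie apart, at 247 to 331 CPM of marker RNA, and hold the highest *Rian* levels.

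The genes most like each RNA over the 24 libraries were different for each. For *Neat1* they were *Dlg4* (r = 0.933), *Baiap2* (0.929) and the speckle protein *Srsf5* (0.929), for *Rian* *Coch* (0.951), *Tnc* (0.947) and *Fstl1* (0.945), and for *Pvt1* *Sparcl1* (0.916), *Tnfrsf10b* (0.904), which encodes a death receptor, and *Nipal4* (0.903). *Gas5* was most like *Creld2* (0.89), *Dnajb11* (0.888) and *Eif1ad* (0.864), *Creld2* and *Dnajb11* being proteins of the endoplasmic reticulum. *Meg3* was most like Gm17201 (0.872), *Ddx55* (0.866) and *Iffo1* (0.852), *Miat* like *Wnk2* (0.853), *Asap3* (0.81) and Gm43808 (0.796), and *Kcnq1ot1* like *Pclo* (0.819), *Xk* (0.816) and Gm13562 (0.815). *Malat1* had the weakest of these likenesses, with B930086L07Rik (0.721) first, a gene at a median of 0.322 CPM, followed by ENSMUSG00000089855 (0.694) and Gm26785 (0.67).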

How the data were processed

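The authors deposited a table of raw read counts per gene for each of the 24 libraries, made from poly(A)-selected RNA sequenced as paired reads of 150 bases. Coordinates are those of GRCm38, and the aligner, the counter and the use of strand are not given in the sources used here. Replicates were not pooled, and groups and replicate numbers come from the sample labels. The counts of any 2 libraries of a group differed by more than sampling noise (chi-square per degree of freedom of at least 25.9 in 36 pairs).

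For the counts, edgeR 4.0.16 in R 4.3.3 was run (TMM normalization, filterByExpr, quasi-likelihood test) on the libraries of each comparison, with Benjamini-Hochberg adjustment over all genes tested. Called means an adjusted p under 0.05, whatever the fold change. SE is the log2 fold change divided by the square root of the quasi-likelihood F. p-values measure the spread between these cultures, or with the block the spread of the differences within replicate numbers. Libraries of the same number deviated together within a time (r of 0.514 to 0.907 in the dose comparisons), and after 0.1 Gy and 2 Gy also between times (0.246 to 0.832), so the replicate number pairs them there, although the labels do not say what it marks. Fits with the replicate number as a block are given where they change a call. Between times in mock-irradiated cells r ran from 0.089 (replicate 3) to 0.8 (replicate 2), and the main fit used no block. GC content and length, from GENCODE M21, were corrected with a spline of 5 degrees of freedom per library. Other settings included DESeq2 1.42.0 and voom (limma 3.58.1). The fits were tested on simulated data.

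The 8 RNAs and all gene lists were chosen with earlier results of these data known. All 8 are given in each comparison, in some as a range. Called partner genes are named between times in mock-irradiated cells and in the 24 h dose comparisons. Called p53 target and cell cycle genes are given as counts, with few examples. Cell type markers are given as levels and sums, and those called are not listed. Uncalled list genes are named by at most 4 examples per list. For each RNA the 3 genes with the highest r are named. Gene lists give 5 symbols (Snhg4, Snhg7, Dio3os, Rmst and Oip5os1) that no row of the count tables carries. Encoded runs of A in *Meg3* are not reported here.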

Additional observations from a re-analysis of the deposited data

Results flagged for a closer look

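In 2 groups of 4 libraries, and for 2 RNAs in each, a single library stood apart from the others by Dixon's test, a flag that chance gives in about 5% of the combinations of RNA and group. *Rian* was at 392.6 CPM in replicate 2 of the 0.1 Gy 24 h group and at 379.7 CPM in replicate 2 of the 2 Gy 24 h group. *Pvt1* was at 16.3 CPM in replicate 2 of the 0.1 Gy 24 h group and at 21.51 CPM in replicate 2 of the 2 Gy 24 h group. These values come from the same 2 libraries, with 331 and 271 CPM of microglia marker RNA, and the part of that RNA in these levels was not tested. The dose effect of 2 Gy differed between 24 h and 6 h with the replicate block for *Rian* (-0.432, adjusted p = 0.0489 in edgeR) and *Kcnq1ot1* (-0.894, adjusted p = 0.0402), and neither call was kept with GC content and length corrected.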

How the results depend on the processing

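The replicate block raised most counts of called genes. Between times in mock-irradiated cells, where r between libraries of the same number was 0.089 to 0.8, it gave *Neat1* -1.63 (adjusted p = 0.00638 in edgeR) and 2428 called genes. Without the block that comparison gave 564 genes when a log2 fold change of at least 1 was also required, 2488 with all 24 libraries in 1 fit and 1999 in DESeq2. Elsewhere the block called 2100 (2 Gy) and 1107 (0.1 Gy) genes at 24 h, 4181 (0.1 Gy) and 3072 (2 Gy) between times, and 1143 (2 Gy) and 1511 (0.1 Gy) for the interactions. With GC content and length corrected as well it called 452 (2 Gy) and 240 (0.1 Gy) at 24 h, 155 for 2 Gy at 6 h, 112 for 2 Gy against 0.1 Gy, and 275 (2 Gy) and 127 (0.1 Gy) for the interactions. DESeq2 called 1 gene for 2 Gy at 6 h, 103 at 24 h, 39 for 2 Gy against 0.1 Gy and 4 for the interaction of 2 Gy and time. All 24 libraries in 1 fit called 108 genes for 2 Gy at 24 h and 15 for 2 Gy against 0.1 Gy. The cause of these differences was not tested.

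Leaving out a library gave 170 to 2999 called genes between times in mock-irradiated cells (lowest without 0 Gy 6 h replicate 1), 534 to 1890 after 0.1 Gy, 220 to 1855 after 2 Gy and 0 to 0 in the unpaired dose and interaction comparisons. With the block, and without replicates 1 to 4 in turn, it gave 143, 69, 5291 and 245 for 2 Gy and 1176, 21, 3728 and 16 for 0.1 Gy at 24 h, and 0 to 129 for 2 Gy and 0 to 13 for 0.1 Gy at 6 h.

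With GC content and length corrected, without and with the block, the sign turned for *Malat1* (0.12 and 0.18) and *Rian* (0.16 and 0.12) after 2 Gy at 24 h, and for *Rian* (0.25 and 0.23) and *Pvt1* (0.032 and 0.031) after 0.1 Gy. It also turned for the interaction of 2 Gy and time in *Malat1* (0.24 and 0.30), *Rian* (0.20 and 0.17) and *Pvt1* (0.094 and 0.082), and for that of 0.1 Gy in *Rian* (0.31 and 0.31) and, with the block, *Pvt1* (0.002). *Kcnq1ot1* between times at 0 Gy turned to -0.25 without the block. None of these values was called.

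Leaving out 1 library turned further uncalled signs. After 2 Gy at 24 h the ranges were -0.036 to 0.40 for *Pvt1*, -0.29 to 0.036 for *Malat1* (-0.35 to 0.057 with the block), -0.092 to 0.38 for *Meg3* and -0.066 to 0.29 for *Gas5* (-0.022 to 0.23 with the block). After 0.1 Gy at 24 h they were -0.53 to 0.10 for *Rian*, -0.36 to 0.047 for *Pvt1* and -0.16 to 0.25 for *Miat* (-0.087 to 0.13 with the block). At 6 h *Miat* after 2 Gy had -0.31 to 0.007 and *Pvt1* after 0.1 Gy -0.15 to 0.31. Between 2 Gy and 0.1 Gy *Rian* had -0.48 to 0.20 and *Neat1* -0.007 to 0.47. Between times *Pvt1* had -0.39 to 0.013 at 0 Gy and *Meg3* -0.20 to 0.086 at 0.1 Gy. The interaction of 2 Gy and time ran from -0.43 to 0.014 for *Pvt1*, -0.30 to 0.014 for *Malat1* and -0.098 to 0.39 for *Meg3*, and that of 0.1 Gy from -0.12 to 0.26 for *Miat* and -0.53 to 0.10 for *Rian*. Depth limits *Kcnq1ot1* most, with at most 271 counts a library.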
